A study of Mus musculus with 4 samples.

Results

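Transcripts of 40 genes of the p53 pathway and the BCL2 family were followed in mouse neural stem cells: the gene for p53 and those of its MDM regulators, 16 genes that p53 is known to activate, 15 BCL2 family genes and 6 genes of the apoptosome, the caspases and their inhibitors. They were chosen by symbol from a fixed list, and all 40 were found among the 24421 genes of the count tables. The cells came from the cerebral cortex at embryonic day 17 and were kept for 1 day in a medium with basic FGF and EGF, which keep such progenitors dividing. Poly(A) RNA was sequenced in 4 libraries. The 2 control libraries came from Prrc2bf/f cells, in which Prrc2b is flanked by loxP sites and no Cre is named. The other 2 are labelled Prrc2bf/f; Nestin-Cre and are called the Cre-labelled libraries here: to the same floxed alleles this genotype adds a Cre recombinase that is driven from Nes regulatory DNA, which is active in neural progenitors. Both groups share the floxed alleles, and a control that carries Cre without floxed alleles was not analysed here.

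In unstressed cells p53 is held low by MDM2, a ubiquitin ligase that p53 itself induces, and by the related protein MDM4. After DNA damage or other stress p53 accumulates and raises genes of cell cycle arrest, DNA repair and death. Among the death genes are BH3-only proteins, which bind the pro-survival BCL2 proteins or activate BAX and BAK, the proteins that open the outer mitochondrial membrane. Cytochrome c then assembles APAF1 and caspase 9, which start the caspase cascade. In the embryonic cortex this route removes progenitors and new neurons, and loss of MDM2 or MDM4 there is known to cause p53-dependent cell death.

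Gene counts came to between 25936794 and 28263272 per library, and 15012 genes passed the filter on low counts. Levels below are counts-per-million (CPM), given for replicates 1 and 2 in that order, and log2 fold changes compare the Cre-labelled libraries with control, ± SE. A gene was called higher or lower at an adjusted p under 0.05 (edgeR quasi-likelihood test, Benjamini-Hochberg over all 15012 genes), and the adjusted p-values below come from that fit. Prrc2b itself stood at 588 and 594 CPM in control and at 575 and 573 CPM in the Cre-labelled libraries (-0.04 ± 0.02, adjusted p = 0.134). The gene total therefore does not check the label. Reads of exons that Cre leaves in place would still be counted, but reads per exon were not examined. Whether Prrc2b was recombined in these cells was not tested. Transcripts of Ddx3y, Eif2s3y, Kdm5d and Uty, which lie on the Y chromosome, were counted in both control libraries and were at 0 in both Cre-labelled ones. Xist, a noncoding RNA of X inactivation that female cells make, was at 1673 and 1615 CPM in control and at 2209 and 2119 CPM in the Cre-labelled libraries (0.40 ± 0.02). Both control libraries thus held transcripts typical of male and of female cells, and genotype, Cre and the share of male cells cannot be told apart in what follows. The labels do not say whether replicates are separate embryos or cultures, and the p-values reflect only how far these libraries spread, which may be technical. Of 10 neural stem cell and radial glial markers none was at 0, but they were not level between the groups. Their sum was 7136 and 7090 CPM in control and 6087 and 6090 CPM in the Cre-labelled libraries, and 5 were lower, 2 higher and 3 did not pass. Nes (-0.22 ± 0.02), Vim (-0.31 ± 0.02) and Hopx (-0.52 ± 0.05) were among those that fell, Hes5 rose (0.89 ± 0.06), and Sox2 did not pass (-0.0071 ± 0.03).

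Of the 40 genes 39 passed the filter. Bik, a BH3-only gene, did not, with 4 and 4 counts in control and 2 and 0 in the Cre-labelled libraries, where a floor of 3 counts stands for 0.106 to 0.116 CPM. Of the 39, 5 were higher, 10 lower and 24 did not pass. The called share was 38.5%, beside 33.1% of all genes tested (15.1% higher and 18.1% lower), so the number of calls does not set these genes apart. The median log2 fold change of the 39 was -0.05, beside 0.0047 for all genes tested, and the median absolute change was 0.117 in both. Calls of at least 1.2-fold numbered 6 of 39, or 15.4%, beside 14.7% of all genes. Past 1.5-fold, where 5.75% of all genes lay, there were 2, Perp and Casp8. With upper quartile scaling 7 were higher and 9 lower in place of 5 and 10, and the calls over all genes turned from 2263 higher and 2711 lower to 2939 and 2288.

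**Figure D1:**
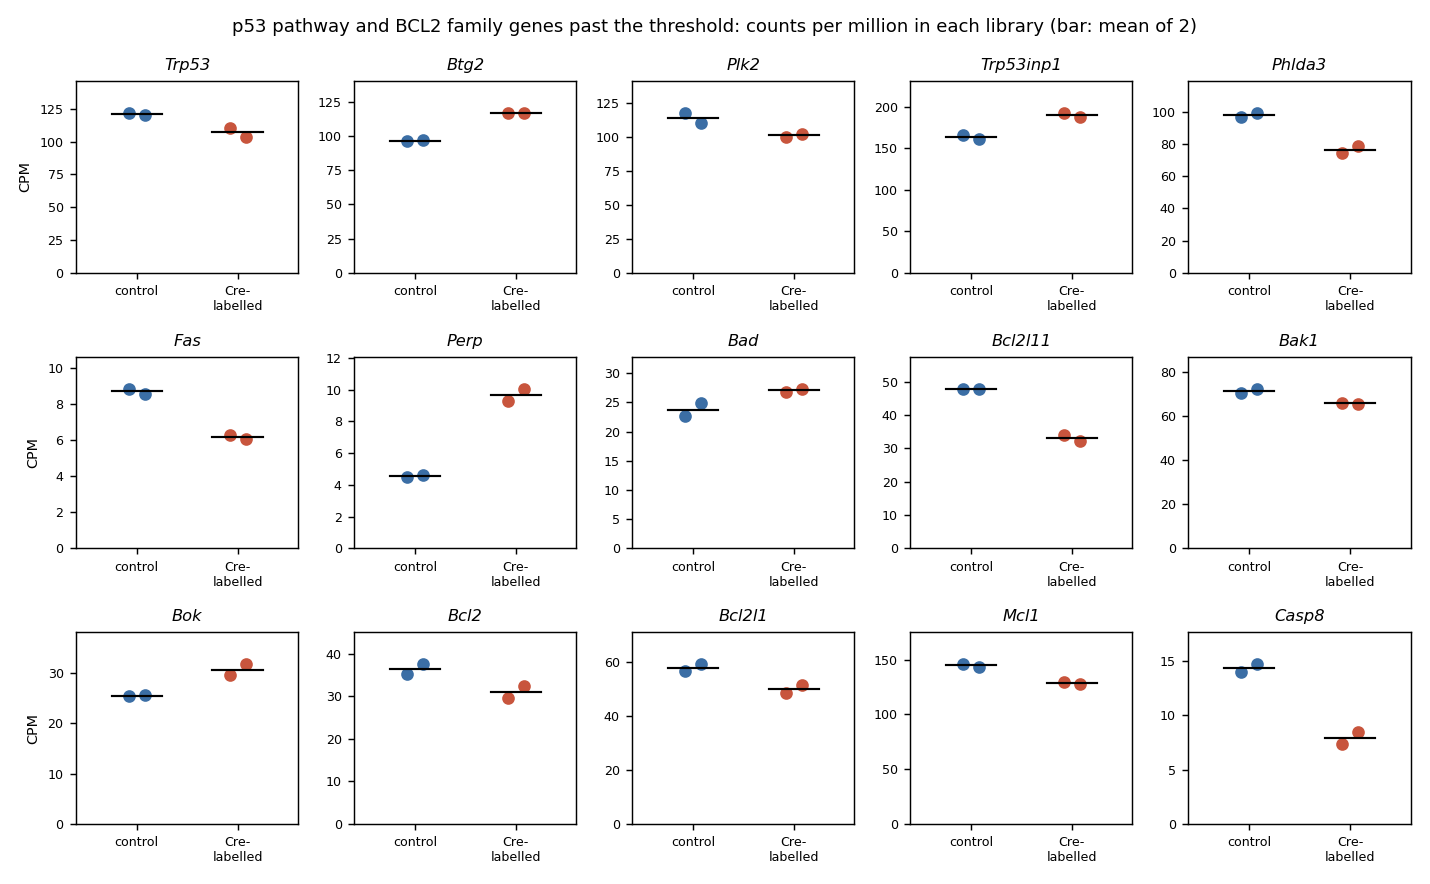
Counts-per-million in each of the 4 libraries for the 15 genes past the threshold, on linear axes from 0. Each point is 1 library and each bar the mean of 2. In all 15 genes, which were picked by a test on these same libraries, the groups do not overlap. The same holds for 64.9% of all genes tested. The largest folds are those of Perp, Casp8 and Bcl2l11.

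**Figure D2:**
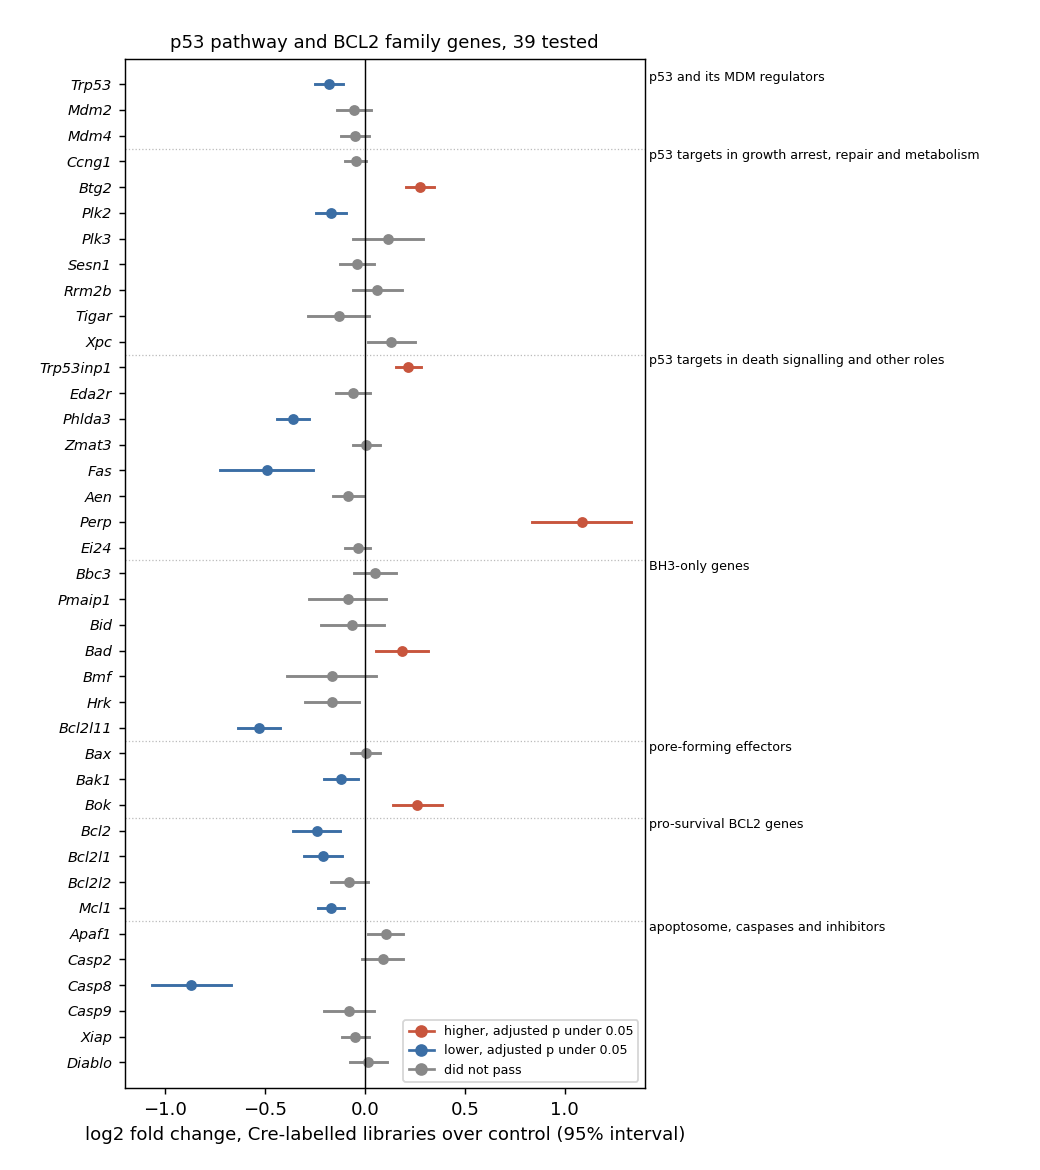
Log2 fold change of the 39 tested genes with its 95% interval, ordered by role from top to bottom, with dotted lines between roles. Genes called higher are red, genes called lower blue and the rest grey; Perp at 1.08 and Casp8 at -0.87 are the extremes, and most grey intervals lie close to 0.

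Trp53, which encodes p53, fell modestly while the genes of its regulators did not pass. Trp53 stood at 122 and 121 CPM in control and at 111 and 104 CPM in the Cre-labelled libraries. Both of the latter lay below both controls, and the log2 fold change was -0.18 ± 0.04 (adjusted p = 0.000113). Mdm2, the ubiquitin ligase gene and itself a p53 target, was at 68.6 and 65.4 against 65.7 and 63.3 CPM (-0.05 ± 0.04, adjusted p = 0.365). The groups overlapped for Mdm2, and its 95% interval ran from -0.14 to 0.03 on the log2 scale. Mdm4 was at 195 and 189 against 194 and 177 CPM (-0.05 ± 0.03, adjusted p = 0.28). Mdm4 was called lower (adjusted p = 0.0121) without replicate 1 of the Cre-labelled libraries, and its log2 fold change turned to 0.02 without replicate 2. Within each library the ratio of Mdm2 to Trp53 counts, which does not depend on scaling, was 0.562 and 0.541 in control and 0.594 and 0.610 in the Cre-labelled libraries. With 2 against 2 libraries an exact permutation test cannot go below 0.333, so this ratio is given without one.

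Of the 16 target genes 3 rose, 3 fell and 10 did not pass, a called share of 37.5% beside 33.1% of all genes tested. The 10 that did not pass come first. Ccng1, which encodes cyclin G1, was the most abundant per length of all 39 genes, at 366 and 370 CPM in control and 361 and 351 CPM in the Cre-labelled libraries (-0.05 ± 0.03, adjusted p = 0.169). Zmat3, an RNA-binding protein gene, was at 125 and 126 against 127 and 125 CPM (0.01 ± 0.03, adjusted p = 0.903). Sesn1, a stress-induced inhibitor of mTORC1 signalling, was at 60.8 and 63.1 against 60.1 and 60.6 CPM, and its 95% interval ran from -0.13 to 0.05. Eda2r, a death receptor of the TNF receptor family that lies on the X chromosome, was at 66.7 and 67.7 against 65.3 and 63.6 CPM (-0.06 ± 0.04, adjusted p = 0.285). Aen, an apoptosis-enhancing nuclease gene, was at 104 and 99.8 against 96.2 and 95.6 CPM (-0.08 ± 0.04, adjusted p = 0.0702), and was called lower without control replicate 2 (adjusted p = 0.0404) and with a replicate block (adjusted p = 0.0453). Ei24, an endoplasmic reticulum protein gene, gave -0.04 ± 0.03. Of the genes of repair and metabolism, Rrm2b (0.06 ± 0.06), a ribonucleotide reductase subunit, and Tigar (-0.13 ± 0.07), a regulator of glycolysis, did not pass. Xpc, the damage sensor of nucleotide excision repair, was at 30.0 and 29.3 against 32.2 and 32.9 CPM (0.13 ± 0.06, adjusted p = 0.073) and passed with upper quartile scaling (adjusted p = 0.0279). The kinase gene Plk3 was at 12.7 and 14.3 against 14.0 and 15.4 CPM (0.12 ± 0.09).

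Summed over those 16 targets, expression was nearly the same in every library: 1472 and 1469 CPM in control and 1466 and 1463 CPM in the Cre-labelled libraries. The most abundant genes weigh most in such a sum, and upper quartile scaling would raise it in the Cre-labelled libraries, since it moved the median log2 fold change of all genes from 0.0047 to 0.0315. Rises of Trp53inp1 and Btg2 and falls of Phlda3 and Plk2 offset each other in it. It also leaves out targets outside the 16, such as Cdkn1a, which fell from 296 and 304 to 249 and 243 CPM.

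To show what these genes carry at their starts, the 250 bases before each annotated start (RefSeq, GRCm38.p6) were searched on both strands for the p53 decamer consensus, the 10-base element of which p53 binds pairs. Windows were found for 33 of the 40 genes, and 8 of those held a match: Trp53, Mdm2, Ccng1, Sesn1, Aen, Ei24, Bmf and Bax. By window this was 8 of 46, or 17.4%, beside 5.93% of the 14451 windows of genes tested. Each of the 8 windows held 1 match, so no pair of perfect matches was found in any of them. Of the 8 genes with a match Trp53 passed the threshold and 7 did not, where 13 of the 33 genes with a window passed. Of all genes tested 33.1% passed, and whether a match goes with a call was not tested. A match is a description of these letters, not a bound site, and most of the targets were listed because p53 is known to act on them. The 4 stretches below, 100 bases each, are shown because they belong to classical p53 pathway genes that did not pass; capitals mark the decamer.
Mdm2: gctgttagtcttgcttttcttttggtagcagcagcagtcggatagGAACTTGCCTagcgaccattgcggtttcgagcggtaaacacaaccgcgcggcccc
Ccng1: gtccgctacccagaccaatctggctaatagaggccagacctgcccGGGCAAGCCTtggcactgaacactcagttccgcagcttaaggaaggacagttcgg
Sesn1: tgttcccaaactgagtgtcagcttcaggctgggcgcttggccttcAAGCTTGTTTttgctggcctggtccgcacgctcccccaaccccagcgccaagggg
Aen: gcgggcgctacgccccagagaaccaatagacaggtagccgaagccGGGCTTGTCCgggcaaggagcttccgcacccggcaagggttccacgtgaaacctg
The stretches lie at chr10:117710890-117710989, minus strand, for Mdm2 and at chr11:40755417-40755516, minus strand, for Ccng1. Those of Sesn1 and Aen lie at chr10:41887221-41887320, plus strand, and at chr7:78895892-78895991, plus strand. The decamers begin 186, 185, 173 and 121 bases before the start in that order. The Sesn1 and Aen windows belong to starts inside the longer annotated genes, and both printed stretches lie within those genes. For each of these genes the other window, before a start farther upstream, held no match.

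The 6 target genes that passed moved in both directions. Perp, which encodes a tetraspan membrane protein of desmosomes that also acts in p53-dependent death, rose from 4.47 and 4.65 to 9.30 and 10.1 CPM. Its libraries were far apart between groups and close within them (1.08 ± 0.12, adjusted p = 2.3e-09), a rise of 112%. Perp lies on chromosome 10 (mm10, 18845020 to 18857073, plus strand) and was the second lowest of the 39 genes per length in control. Btg2, an antiproliferative gene of neurogenic progenitors, was at 96.3 and 97.0 against 117 and 117 CPM (0.28 ± 0.03, adjusted p = 3.29e-08). Trp53inp1, a nuclear protein gene that acts with p53 and in autophagy, was at 166 and 161 against 193 and 188 CPM (0.22 ± 0.03, adjusted p = 2.69e-07). All 3 were higher in both Cre-labelled libraries than in either control, where groups did not overlap for 64.9% of all genes tested.

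Phlda3, which encodes a PH-domain repressor of AKT, showed the steepest fall among abundant targets, from 97.0 and 99.6 to 74.3 and 79.2 CPM (-0.36 ± 0.04, adjusted p = 1.31e-09; chromosome 1, 135766119 to 135769136, plus strand). Fas, the receptor for Fas ligand, was scarce and fell from 8.86 and 8.55 to 6.30 and 6.08 CPM (-0.49 ± 0.11, adjusted p = 0.000832). Plk2, a polo-like kinase gene of centriole duplication and synapses, was at 118 and 110 in control and at 100.0 and 102 CPM in the Cre-labelled libraries (-0.17 ± 0.04, adjusted p = 0.000328). For these 3 genes both Cre-labelled libraries lay below both controls, beside 64.9% of all genes tested without overlap in either direction.

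Of the 4 pro-survival BCL2 genes Mcl1, Bcl2l1 and Bcl2 fell and Bcl2l2 did not pass, where 18.1% of all genes tested were lower. All 4 log2 fold changes were negative, also in each of the 15 alternatives, and the group as such was not tested. Mcl1, whose short-lived protein protects cortical progenitors, was at 146 and 144 CPM in control and at 130 and 128 CPM in the Cre-labelled libraries (-0.17 ± 0.03, adjusted p = 5.51e-05). Bcl2l1, which encodes BCL-XL and protects young neurons, was at 56.6 and 59.3 against 48.6 and 51.7 CPM (-0.21 ± 0.05, adjusted p = 0.000489). Bcl2 was at 35.4 and 37.6 against 29.5 and 32.4 CPM (-0.24 ± 0.06, adjusted p = 0.00115), a call lost without replicate 1 of the Cre-labelled libraries (adjusted p = 0.0507). Bcl2l2, which encodes BCL-W, was at 53.1 and 55.1 against 51.1 and 51.4 CPM (-0.08 ± 0.05, adjusted p = 0.196). The 4 together summed to 291 and 296 CPM in control and to 259 and 263 CPM in the Cre-labelled libraries, with a median log2 fold change of -0.19. Per kilobase of exon, Mcl1 was the most abundant of them in control at 42.4 ± 0.443 CPM and Bcl2 the least at 3.98 ± 0.174 CPM (SD, n = 2). Between them lay Bcl2l1 at 12.6 ± 0.417 and Bcl2l2 at 12.1 ± 0.317 CPM per kilobase, which differed by about the spread between libraries. That spread does not cover error in the exon lengths.

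Among the BH3-only genes, Bcl2l11 stood out by the size of its fall. This gene encodes BIM, which binds all the pro-survival proteins and is held down by growth factor signalling through ERK and AKT. It was at 47.7 and 47.9 CPM in control and at 34.0 and 32.2 CPM in the Cre-labelled libraries (-0.53 ± 0.05, adjusted p = 9.11e-11; chromosome 2, 128126038 to 128162547, plus strand), with a 95% interval from -0.63 to -0.42 and a wide gap between the groups. Bad, which encodes a growth factor-regulated partner of BCL-XL, went the other way, from 22.6 and 24.9 to 26.8 and 27.4 CPM (0.19 ± 0.06, adjusted p = 0.0233). That call was lost with DESeq2 (adjusted p = 0.214), without the low-count filter (0.0607), without control replicate 1 (0.269) and without replicate 2 of the Cre-labelled libraries (0.103).

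Bbc3 and Pmaip1, BH3-only genes that p53 induces, did not pass. Bbc3, which encodes PUMA, was at 43.3 and 48.9 against 47.1 and 48.7 CPM (0.05 ± 0.05, adjusted p = 0.475), and its sign turned without control replicate 1. Pmaip1, which encodes NOXA, was at 11.1 and 11.1 against 10.2 and 10.7 CPM (-0.08 ± 0.10, adjusted p = 0.537). Bid, the link from caspase 8 to mitochondria, gave -0.06 ± 0.08. Hrk, induced in neurons deprived of trophic factors, was at 23.5 and 24.4 against 21.4 and 21.4 CPM (-0.17 ± 0.07, adjusted p = 0.0519) and was called lower with a replicate block (adjusted p = 0.0461). Bmf, a partner of the cytoskeleton, gave -0.17 ± 0.11 at about 8 CPM. The 95% intervals of Pmaip1, Hrk and Bmf reach past 1.2-fold, so these data do not settle whether they changed by that much.

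Of the 3 pore-forming effectors 1 rose, 1 fell and 1 did not pass, a called share of 66.7% beside 33.1% of all genes tested. Bax was level at 108 and 109 in control and at 106 and 112 CPM in the Cre-labelled libraries (0.0044 ± 0.04, adjusted p = 0.943), with an interval from -0.07 to 0.08. Bok, an effector that is controlled by protein turnover rather than by BCL2, was at 25.5 and 25.6 against 29.6 and 31.8 CPM (0.26 ± 0.06, adjusted p = 0.000795). Bak1 was at 70.5 and 72.4 against 66.0 and 65.6 CPM (-0.12 ± 0.04, adjusted p = 0.0225). The Bak1 call was lost with upper quartile scaling (adjusted p = 0.0794), with DESeq2 (0.199), without control replicate 2 (0.143) and without replicate 1 (0.066) or 2 (0.091) of the Cre-labelled libraries. Exons of Bad and Bak1 overlap those of Gpr137 and Ggnbp1 on the opposite strand, and those of Bcl2 overlap an antisense RNA. How the counting treated strand is not known, so these 3 totals are uncertain. Of all 40 genes 12 have an exonic overlap with another gene. Among those that did not pass they are Plk3, Rrm2b, Tigar, Ei24, Bid, Bax, Bcl2l2, Casp9 and Diablo. For Bax, Bcl2l2 and Diablo an overlapping gene lies on the same strand. Totals of these genes are uncertain as well. Gpr137 itself gave -0.03 ± 0.06 and Ggnbp1 0.24 ± 0.15, and neither passed.

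Ratios of counts within a library compare pro-death with pro-survival genes without any scaling. The ratio of Bax to Bcl2 was 3.04 and 2.91 in control and 3.59 and 3.45 in the Cre-labelled libraries. The ratio of Bcl2l11 to Bcl2l1 moved the other way, from 0.843 and 0.809 to 0.699 and 0.623. Neither ratio overlapped between the groups, where 64.9% of single genes tested did not overlap either, and neither ratio was tested. They add no separate result: Bax was level, so the first mostly restates the fall of Bcl2. The second restates that Bcl2l11 fell by more than Bcl2l1. Effectors summed to 204 and 207 CPM in control and 202 and 209 CPM in the Cre-labelled libraries, and BH3-only genes to 174 and 184 against 164 and 165 CPM.

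**Figure D3:**
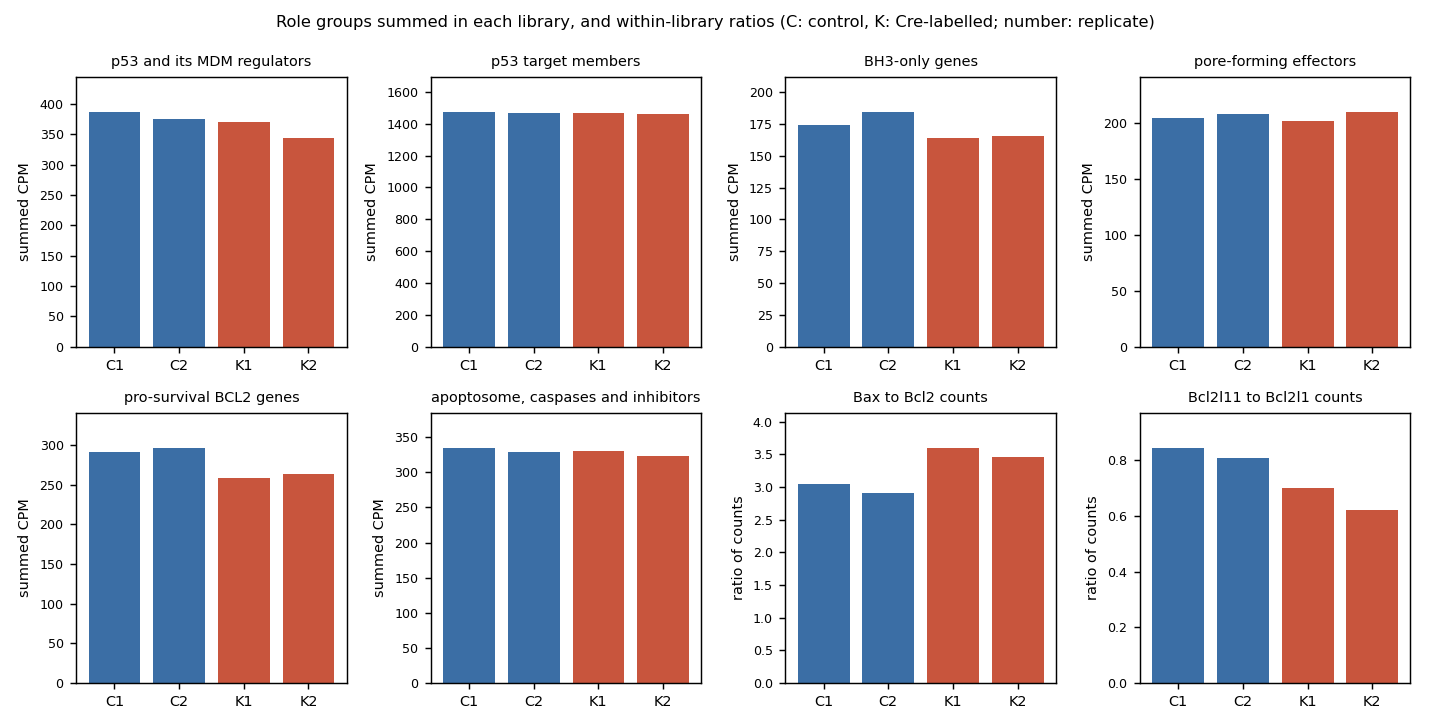
Summed CPM of each role group, and the Bax to Bcl2 and Bcl2l11 to Bcl2l1 ratios of counts, in control libraries (blue, C1 and C2) and Cre-labelled libraries (red, K1 and K2). Axes start at 0. The sum of the 16 p53 targets, in which rises and falls offset each other, is nearly level across the 4 bars. The pro-survival sum drops from 291 and 296 to 259 and 263 CPM.

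Of the 6 genes of the apoptosome, the caspases and their inhibitors, Casp8 fell and 5 did not pass. The called share was 16.7%, beside 33.1% of all genes tested. Casp8, which encodes the initiator caspase recruited by death receptors, fell from 14.0 and 14.7 to 7.39 and 8.43 CPM (-0.87 ± 0.10, adjusted p = 2.57e-09; chromosome 1, 58795374 to 58847503, plus strand). Both Cre-labelled libraries were far below both controls, and the 95% interval ran from -1.07 to -0.67. Casp9, the initiator of the mitochondrial route, was at 30.1 and 28.5 against 28.9 and 26.4 CPM (-0.08 ± 0.06, adjusted p = 0.343). Apaf1, its scaffold, was at 58.3 and 59.2 against 62.4 and 63.9 CPM (0.10 ± 0.04, adjusted p = 0.0607), and passed as higher with upper quartile scaling (0.0161), total count scaling (0.043) and a replicate block (0.0439). Casp2, the caspase of the PIDDosome, gave 0.09 ± 0.05. Xiap, an X-linked inhibitor of caspases, gave -0.05 ± 0.03, and Diablo, which relieves that inhibition, 0.02 ± 0.05.

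**Figure D4:**
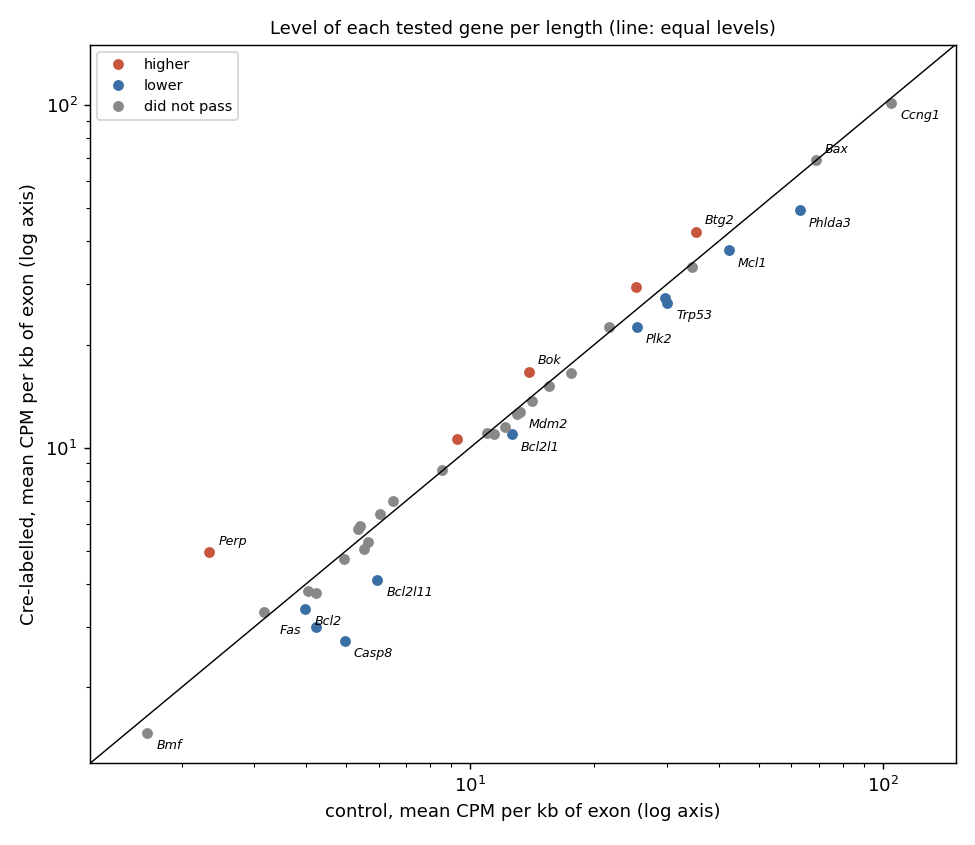
Mean CPM per kilobase of exon in control (x axis) and in the Cre-labelled libraries (y axis), both on log axes, for the 39 tested genes; the line marks equal levels. Points run from Bmf at 1.65 to Ccng1 at 104.7 CPM per kilobase in control, and Perp, Casp8, Bcl2l11 and Fas lie farthest from the line among the scarce genes.

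Of the 24 genes that did not pass, 19 had 95% intervals within 1.2-fold in both directions. The other 5 were Plk3, Tigar, Pmaip1, Bmf and Hrk. These intervals reflect only how far the libraries spread, so they do not exclude a change of that size between genotypes. Groups were fully separated for 27 of the 39 genes, or 69.2%, beside 64.9% of all genes tested. In control, levels per kilobase of exon ran from Ccng1 at 104.7 ± 0.821, Bax at 68.8 ± 0.782 and Phlda3 at 63.0 ± 1.19 CPM down to Rrm2b at 3.17 ± 0.0484, Perp at 2.34 ± 0.0658 and Bmf at 1.65 ± 0.0804 CPM (SD, n = 2). Trp53 at 30.0 ± 0.219 and Bak1 at 29.7 ± 0.570 CPM were neighbours that did not differ beyond that spread, as were Mdm2 at 13.2 ± 0.455 and Mdm4 at 13.0 ± 0.319 CPM. The lengths count every annotated exon of a gene, whether or not these cells use it. The SD does not cover error in the length, so the order of genes per kilobase is uncertain.

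Markers of other cell types moved in the same libraries, beside the stem cell and radial glial markers given above. The summed level of 10 microglia and macrophage markers was 6.66 and 7.91 CPM in control and 3.40 and 2.58 CPM in the Cre-labelled libraries, and 5 of 6 tested fell. For 10 mural cell and fibroblast markers the sums were 189 and 184 against 60.9 and 64.4 CPM (7 of 9 tested fell and 1 rose), and for 6 astrocyte markers 1950 and 1970 against 1227 and 1228 CPM (4 of 5 fell). For 8 choroid plexus markers the sums were 214 and 221 against 1364 and 1378 CPM (7 of 8 rose), and for 8 neuronal markers 2479 and 2465 against 2848 and 2828 CPM (6 of 8 rose). Oligodendrocyte lineage markers, 8 in number, summed to 1403 and 1445 against 1539 and 1581 CPM (4 of 8 rose and 1 fell). Endothelial markers, also 8, summed to 25.7 and 27.5 against 20.1 and 21.1 CPM (of 7 tested, 1 rose and 2 fell). In bulk RNA fewer cells of a type and less RNA per cell cannot be told apart, and the part of these cell types in the values of the 39 genes, Perp, Casp8, Fas, Phlda3 and Bcl2l11 included, was not tested.

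Other genes of the p53 pathway, on a list of 25 further targets, gave 6 higher and 7 lower, with a median of 0.05. Cdkn1a, which encodes the cell cycle inhibitor p21 and is the most widely used p53 readout, fell from 296 and 304 to 249 and 243 CPM (-0.29 ± 0.03, adjusted p = 4.16e-11). Gadd45a, a growth arrest gene, fell from 8.90 and 9.09 to 5.27 and 3.50 CPM (-1.02 ± 0.14), the ephrin receptor gene Epha2 fell by 1.12 ± 0.11 on the log2 scale, and the nuclear body gene Pml fell by 0.39 ± 0.06. Ddit4, an inhibitor of mTORC1 that hypoxia also induces, rose from 399 and 416 to 442 and 451 CPM (0.13 ± 0.03), and the tetraspanin gene Cd82 (0.38 ± 0.08), the PIDDosome gene Pidd1 (0.25 ± 0.06) and the spindle gene Psrc1 (0.13 ± 0.03) rose with it. The called share of this list was 52.0%, beside 33.1% of all genes tested, with calls in both directions.

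On a list of 20 regulators of p53 and damage kinases, of which 18 were tested, 3 rose and 4 fell, a called share of 38.9% beside 33.1% of all genes tested, with a median of -0.0033. Rpl5 and Rpl11, ribosomal proteins that bind MDM2, rose by 0.22 ± 0.02 and 0.26 ± 0.02 on the log2 scale; ribosomal protein genes have many pseudogenes, among which reads could have been split. The deacetylase gene Sirt1 passed narrowly (0.17 ± 0.07, adjusted p = 0.0495). Cdkn2a, the locus of the MDM2 inhibitor ARF and of p16, fell from 13.1 and 13.1 to 6.65 and 7.16 CPM (-0.93 ± 0.10, adjusted p = 1.29e-09). The damage kinase gene Atm (-0.14 ± 0.04), the damage adaptor gene Trp53bp1 (-0.11 ± 0.03) and the ubiquitin ligase gene Huwe1 (-0.07 ± 0.02) were lower by little.

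Of 30 further apoptosis genes, 26 were tested, 4 rose and 8 fell, a called share of 46.2% beside 33.1% of all genes tested, with a median of 0.01. Birc5, which encodes the mitotic protein survivin, rose by 0.16 ± 0.05. Bnip3, a mitophagy receptor gene of the BH3 type, rose from 271 and 280 CPM in control to 356 and 340 CPM in the Cre-labelled libraries (0.34 ± 0.03, adjusted p = 6.62e-13) and its paralog Bnip3l by 0.23 ± 0.03. Cycs, which encodes cytochrome c, fell from 108 and 107 to 92.4 and 91.5 CPM (-0.22 ± 0.04, adjusted p = 3.69e-06), Birc6, a large inhibitor of apoptosis, by 0.22 ± 0.03, and Tnfrsf1a and Cflar also fell, by 0.41 ± 0.04 and 0.22 ± 0.05.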

How the data were processed

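The deposited files hold raw read counts per gene symbol, with no normalization, per the values in them. HISAT2 2.2.1, HTSeq 0.12.4, DESeq2 1.26.0 and the mm10 build are named in the submitters' processing notes; the annotation and strand setting: not given in the sources used here. The 5 lines at the end of each table that name no gene held 25.2% to 26.1% of entries and were left out. Poly(A) libraries were made with dUTP marking of the strand, per the labels' protocols. Groups and replicate numbers came from the sample titles.

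All 24421 genes were fitted with edgeR 4.0.16 in R 4.3.3: filterByExpr, trimmed mean of M values, and the quasi-likelihood F test (legacy off) with Benjamini-Hochberg adjustment over 15012 genes. SE is the absolute log2 fold change divided by the root of F. CPM use the scaled library sizes of that fit. Libraries of the same group differed by more than sampling noise, with a chi-square per gene of 1.96 (controls) and 2.20 (Cre-labelled), and each counted as a replicate. The reads carry no molecular identifiers, so the floor of 3 counts covers counting error only. Positions and exon lengths came from GENCODE M21 (GRCm38, which mm10 also denotes), where all 40 symbols matched, and promoter windows from RefSeq (GRCm38.p6). The steps were tested on simulated counts.

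The genes, lists and alternatives were chosen with earlier results of these data known. All 40 genes were to be accounted for, and of each further list up to 4 genes per direction with the smallest p were named. Values of some genes of the further apoptosis list are not reported here. The alternatives were other scalings and low-count filters, DESeq2 1.42.0, limma voom 3.58.1, the legacy fit, a test against 1.2-fold, a threshold of 0.01, a replicate block and omission of each library.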

Additional observations from a re-analysis of the deposited data

How the results depend on the processing

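The counts of 5 higher and 10 lower genes stayed within 1.5 times under 14 of 15 alternatives; the test against a 1.2-fold change left 1 higher (Perp) and 3 lower (Bcl2l11, Casp8 and Phlda3). DESeq2 gave 4 and 9, and kept 13 of the 15 calls. Leaving out 1 library gave 4 to 5 higher and 9 to 10 lower. Bad, Bak1 and Bcl2 were the genes that lost a call under settings that test for any difference at 0.05. Over all genes DESeq2 called 1055 higher and 1642 lower, the threshold of 0.01 gave 1490 higher, and the 1.2-fold test 279 and 760, against 2263 and 2711. With a replicate block 6 genes were higher and 12 lower, with Apaf1, Aen and Hrk added. Calls over all 15012 genes tested rose as well with the block, to 2442 higher and 2881 lower from 2263 and 2711. The labels do not say that a replicate number marks a shared litter or day, and deviations of same-numbered libraries correlated at -0.016 over genes. Low counts limit Fas, Perp, Casp8, Bmf and Pmaip1 most, as their standard errors of about 0.10 or more show.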

Other observations

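Some genes on the lists of further p53 targets and apoptosis genes act with Fas and Casp8 in death receptor signalling. The genes below come from no list of that route and were picked after their values had been seen, so they say nothing of the route as a group, and 18.1% of all genes tested were lower. The adaptor gene Fadd was at 13.4 and 12.1 CPM in control and at 10.5 and 10.4 CPM in the Cre-labelled libraries (-0.28 ± 0.09, adjusted p = 0.0168). The kinase gene Ripk1 was at 28.8 and 29.6 against 25.3 and 25.6 CPM (-0.20 ± 0.06, adjusted p = 0.0095). Of the receptors, Tnfrsf1a, which binds TNF, fell from 106 and 107 to 78.4 and 81.6 CPM (-0.41 ± 0.04, adjusted p = 1.04e-11), and Tnfrsf10b, which binds TRAIL, from 20.4 and 17.6 to 14.9 and 15.4 CPM (-0.33 ± 0.08, adjusted p = 0.00152). Cflar, the inhibitor of caspase 8 activation, fell as well, from 48.0 and 46.3 to 41.4 and 39.6 CPM (-0.22 ± 0.05, adjusted p = 0.000675). The adaptor gene Tradd did not pass (0.20, adjusted p = 0.191), nor did Birc2 (0.01, adjusted p = 0.89), whereas Birc3 fell at a low level, from 1.17 and 1.53 to 0.778 and 0.539 CPM. Also not passing were the death receptor gene Eda2r (-0.06, adjusted p = 0.285), Cradd (0.23, adjusted p = 0.251) and Casp8ap2 (0.01, adjusted p = 0.905). In the same libraries summed markers of cell types moved both ways. They fell from 6.66 and 7.91 to 3.40 and 2.58 CPM for microglia and macrophages. For mural cells and fibroblasts they fell from 189 and 184 to 60.9 and 64.4 CPM. For astrocytes they fell from 1950 and 1970 to 1227 and 1228 CPM. Sums also fell for stem cell and radial glial markers and for endothelial ones. They rose from 214 and 221 to 1364 and 1378 CPM for choroid plexus. For neurons they rose from 2479 and 2465 to 2848 and 2828 CPM. For the oligodendrocyte lineage they rose from 1403 and 1445 to 1539 and 1581 CPM. The part of these cell types in the values of Tnfrsf1a, Tnfrsf10b, Fadd, Ripk1, Cflar and Birc3 was not tested. Adjusted p-values are from the edgeR quasi-likelihood test.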
